A study of Mus musculus with 14 samples.

Results

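Kidneys taken 4 h after an injection of MnDps were compared with kidneys of vehicle-injected mice by RNA sequencing. The comparison covers every gene of the deposited count table in 3 MnDps libraries and 3 control libraries, which were chosen by the names of their columns and make up 6 of the 14 libraries of the series. All of the mice were C57BL/6J males, and the labels name no other allele, agent or treatment for any group. MnDps was given intravenously at 18 mg/kg. A further group, Dps at the same dose, route and time, also with 3 libraries, served to show where MnDps differed from the most similar injection. The series was built around protein nanocages that enter the proximal tubule after filtration in the glomerulus, but the labels spell out neither Dps nor MnDps and give no sampling time for the vehicle mice. The labels do not say that each library came from a separate animal, so all p-values measure only the spread between these libraries, which may be technical.

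Of 24421 genes in the table, 14854 had enough reads to be tested. MnDps libraries held 22228392 to 26490966 assigned reads and control libraries 17589774 to 37135858. A gene was called higher or lower at an adjusted p under 0.05 in edgeR's quasi-likelihood test. By that rule 6768 genes, 45.6% of those tested, differed between MnDps and control, with 22.9% higher and 22.7% lower. These shares are the background against which each gene list has to be read. The lists were chosen with earlier results of these data known, so each is described by its counts and its median. Members with almost no control counts, such as Il6 (0), Cxcl2 (1) and Itih4 (3), passed the read filter only through injected groups. Such members could be called higher but hardly lower. Larger changes were fewer: 4.41% of the tested genes were higher and 3.37% lower by over 2-fold. For 51.9% of the tested genes the MnDps and control libraries did not overlap. All 12 listed markers of kidney tissue passed the filter, of which 2 were higher (1 without MnDps replicate 3 or Control replicate 3) and 5 lower after MnDps, and 1 and 4 with correction for transcript length and GC content. Umod, the main protein of normal urine, read 2925 ± 227 CPM (counts scaled to the library total, mean ± SD, n = 3) in MnDps and 3023 ± 476 in control, and Cdh16, kidney-specific cadherin, 1224 ± 25.1 and 1228 ± 121. The globin genes of red cells were listed at 0 in all of these libraries. Values of single libraries are given in the order of their replicate numbers.

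The size of a change also moved with transcript length. Over 10 bins of genes from short to long, the median log2 fold change against control fell step by step from 0.41 to −0.39, and the rank correlation of fold change with length over genes was −0.47. In Dps at 4 h against the same controls the corresponding medians ran from −0.16 to 0.06. Against the mean of the controls (for a control, of the other controls), the rank correlation over genes of a library's log2 CPM difference with length was −0.373, −0.442 and −0.499 in the MnDps libraries and 0.032, −0.321 and 0.344 in the control libraries. Control replicate 2 stood nearer to the MnDps libraries than to the other controls on this measure. The range was 0.108 to 0.2 in Dps at 4 h, −0.497 to −0.398 in Dps at 24 h and −0.323 to −0.301 in MnDps at 24 h. Correcting each library for length and GC content flattened the MnDps medians to between −0.06 and 0.03 and left 5648 called genes, 38% of those tested. After the correction 18.7% were higher and 19.3% lower. A corrected count is therefore given for each list where the correction moves it by over 1.5 times, and a corrected value for each gene whose call it changes. What produced the trend was not tested. MnDps replicate 3 stood apart from the other MnDps libraries on the second principal component, at 40.8 against 10 and 13.8, and a result that depends on it is named as such.

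**Figure D1:**
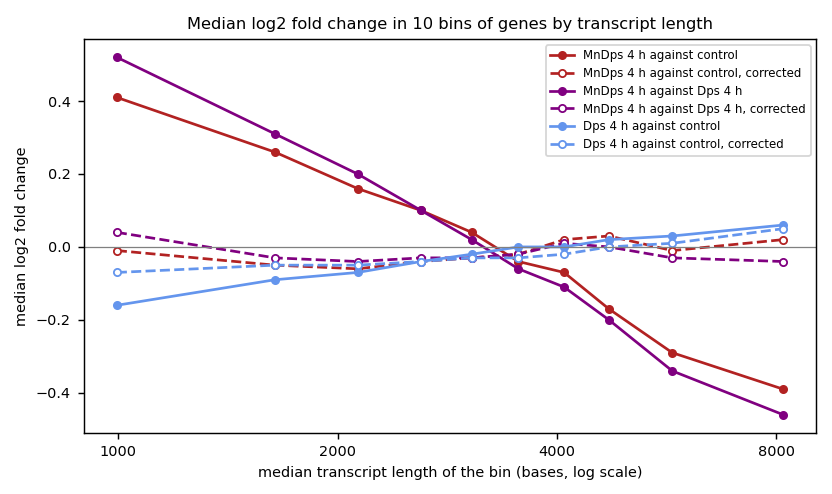
Median log2 fold change (vertical axis) of genes in 10 bins of transcript length (horizontal axis, bases, log scale) for MnDps against control, MnDps against Dps and Dps against control at 4 h, before (solid) and after (dashed) length and GC correction. The MnDps lines run from 0.41 and 0.52 in the shortest bin to −0.39 and −0.46 in the longest, and the corrected lines stay near 0.

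Interferons are secreted proteins with which a tissue warns its own cells of infection. Type I interferons act through the receptor pair Ifnar1 and Ifnar2, the kinases Jak1 and Tyk2, and a complex that includes Stat2 and Irf9 and binds a short DNA element, the interferon-stimulated response element, in the promoters of its target genes. Interferon gamma acts through Ifngr1 and Ifngr2, and many of the genes it raises, such as the immunity-related GTPases, respond to both.

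To show what these promoters look like, the 250 bases before the RefSeq transcription start are printed for the 5 interferon-response genes with the largest rises among those with a single RefSeq window, a start found in GENCODE and a match to the core of the response element, which is GAAA, any 2 bases and GAAA again, searched on both strands with overlapping matches counted. A start counted as found where the 20 bases after it lay within the first 400 bases of a GENCODE transcript of the gene. Among genes with larger rises than Irgm1, the last one printed, Ifit3, Bst2 and Oas1a held a match but not such a start. Gbp3, also with a larger rise, held a match but had 2 windows. Capitals mark the match. Sequences and coordinates are those of RefSeq on GRCm38.p6. Each is written in the direction of its gene, 5′ to 3′, so a match on the other strand reads as TTTC, any 2 bases and TTTC again.
Ifit1, chr19:34640639-34640888, forward strand: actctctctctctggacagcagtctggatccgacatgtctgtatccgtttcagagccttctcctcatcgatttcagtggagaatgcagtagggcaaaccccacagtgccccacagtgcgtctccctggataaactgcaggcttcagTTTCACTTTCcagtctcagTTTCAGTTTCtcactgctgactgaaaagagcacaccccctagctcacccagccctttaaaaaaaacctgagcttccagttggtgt
Isg15, chr4:156200819-156201068, reverse strand: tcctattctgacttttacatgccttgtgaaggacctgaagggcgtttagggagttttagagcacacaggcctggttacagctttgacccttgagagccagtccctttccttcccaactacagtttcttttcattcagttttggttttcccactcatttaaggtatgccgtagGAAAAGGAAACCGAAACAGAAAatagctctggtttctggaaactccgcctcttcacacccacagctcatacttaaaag
Igtp, chr11:58199306-58199555, forward strand: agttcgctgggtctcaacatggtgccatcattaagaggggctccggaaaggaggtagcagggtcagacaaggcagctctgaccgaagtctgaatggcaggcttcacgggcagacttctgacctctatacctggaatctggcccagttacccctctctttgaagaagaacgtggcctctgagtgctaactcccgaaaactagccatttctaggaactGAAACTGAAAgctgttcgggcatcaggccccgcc
Gbp2, chr3:142620413-142620662, forward strand: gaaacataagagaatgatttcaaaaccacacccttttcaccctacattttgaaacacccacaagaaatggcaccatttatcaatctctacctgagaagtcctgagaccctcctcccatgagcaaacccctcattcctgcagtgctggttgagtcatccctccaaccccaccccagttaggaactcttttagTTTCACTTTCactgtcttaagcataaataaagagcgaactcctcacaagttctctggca
Irgm1, chr11:48871421-48871670, reverse strand: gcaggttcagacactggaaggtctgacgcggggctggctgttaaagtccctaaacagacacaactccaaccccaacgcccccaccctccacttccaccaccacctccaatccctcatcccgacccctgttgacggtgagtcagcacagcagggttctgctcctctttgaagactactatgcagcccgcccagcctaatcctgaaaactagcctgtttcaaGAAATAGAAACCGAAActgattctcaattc

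The element lay close to the start in all 5 promoters, which were chosen for holding it. In Ifit1 it was found at 104 and 85 bases before the start on the opposite strand, and in Isg15 as overlapping copies at 78, 72 and 66 bases on the gene's strand. In Igtp it began 34 bases, in Gbp2 59 bases and in Irgm1 30 and 24 bases before the start. The same letters occurred in the promoters of 936 of 27025 genes, 3.46% of the RefSeq table. Among tested genes with a promoter in that table, 375 of 11222 (3.34%) held the element. Of these 375, 133 (35.5%) were higher and 67 (17.9%) lower after MnDps, with a median log2 fold change of 0.13, beside 22.5% higher and 22.9% lower among the 10847 genes without it. In the interferon-response list, 43 of 57 tested genes matched a promoter and 17 of those held the element. All 17 rose, with a median of 3.81, and of the 26 without it 21 rose, with a median of 2.4. A match describes letters in this window and shows no binding.

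The interferon-response genes rose nearly as a whole. Of 57 tested genes, out of 59 listed, 51 rose and 1 fell, beside the 22.9% and 22.7% of all genes, and their median log2 fold change was 3.37 where that of all genes was 0. With length and GC correction 50 rose and 1 fell, at a median of 3.30, beside −0.01 over all genes. Ifit1, whose protein binds foreign RNA caps, read 4.89, 7.11 and 5.49 CPM in the control libraries and 448, 412 and 424 CPM in the MnDps libraries. Its log2 fold change was 6.21 ± 0.17 (SE), adjusted p = 2e-12. Isg15, a ubiquitin-like protein attached to other proteins, read 3.73, 5.39 and 3.31 CPM in control and 260, 266 and 359 CPM in MnDps. The MnDps libraries lay far above the control libraries for both genes, with no overlap.

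The sensors that start the response were themselves higher. Of 11 tested sensors 9 rose and 0 fell. The cytosolic RNA sensors Ddx58 (RIG-I), Ifih1 (MDA5) and Dhx58 (LGP2) changed by 2.88 ± 0.11, 2.98 ± 0.13 and 4.47 ± 0.17 on the log2 scale. Zbp1, a sensor of left-handed nucleic acid that can start necroptosis, changed by 3.79 ± 0.37, Eif2ak2, the RNA-activated kinase that stops translation, by 2.45 ± 0.11, and Tmem173 (STING) by 1.16 ± 0.22. The adaptor Mavs, at −0.15 ± 0.07, and the inflammasome sensor Aim2, at −0.05 ± 0.38, did not pass the test. After correction Mavs, at −0.25, was called lower.

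Signalling genes followed the same direction, apart from the kinases. Irf7, the factor that amplifies interferon production, read 12.5, 19.8 and 14.2 CPM in control and 463, 389 and 567 CPM in MnDps, a log2 fold change of 4.94 ± 0.25. The groups were far apart. Stat2, Irf9 and Irf1 rose by 2.78 ± 0.13, 1.99 ± 0.11 and 3.19 ± 0.22, while Jak2 at −0.12 ± 0.11 and Tyk2 at 0.03 ± 0.10 did not pass the test.

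Among the antiviral effectors 17 of 18 rose, with a median of 3.78. Oasl1, a member of the oligoadenylate synthetase family, had the largest log2 fold change of the list in this fit, at 6.67 ± 0.27. Mx1 and Mx2, dynamin-like GTPases that trap viral nucleocapsids, rose by 4.59 ± 0.33 and 4.82 ± 0.26. Rsad2 (viperin) rose by 2.35 ± 0.23 and Bst2 (tetherin), which holds budding virus at the membrane, by 4.30 ± 0.25. All 7 of the guanylate-binding proteins and immunity-related GTPases that were tested rose, with a median of 3.97, among them Igtp at 4.78 ± 0.29, Gbp2 at 4.45 ± 0.35 and Irgm1 at 3.81 ± 0.20. The promoters of these 3 are printed above. Members of the Ifit, Oas, Gbp and H2 families are near-identical in part, so reads could be split between copies, and their separate values are uncertain.

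Enzymes that attach or remove Isg15, ubiquitin or ADP-ribose rose in 10 of 10 cases, including Ube2l6, the enzyme that conjugates Isg15, at 3.83 ± 0.20. Usp18, which removes Isg15 and blocks the type I receptor, read 2.58, 4.07 and 4.33 CPM in control and 124, 101 and 145 CPM in MnDps, with every MnDps library above every control library. Socs1, the feedback inhibitor of Jak kinases, rose by 3.13 ± 0.34. In contrast Pias1, an inhibitor of cytokine signalling, fell by 0.39 on the log2 scale, a call that was lost with length and GC correction (corrected value −0.07).

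No interferon gene had enough reads to be tested. Ifnb1 and the listed Ifna genes had 0 counts in every MnDps and control library, which allows up to 0.0432 CPM over the MnDps libraries by the limit of 3 counts, counting error only. Ifng had 0, 3 and 6 counts in the MnDps libraries and 1 count over the controls. Of the 6 receptor genes, Ifngr2 rose by 0.72 ± 0.09. Ifnar2 and Ifngr1 were called higher too, at 0.27 ± 0.10 and 0.28 ± 0.09, but each lost its call with the correction and without MnDps replicate 3, Control replicate 2 or Control replicate 3, and Ifnar2 also without MnDps replicate 2.

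**Figure D2:**
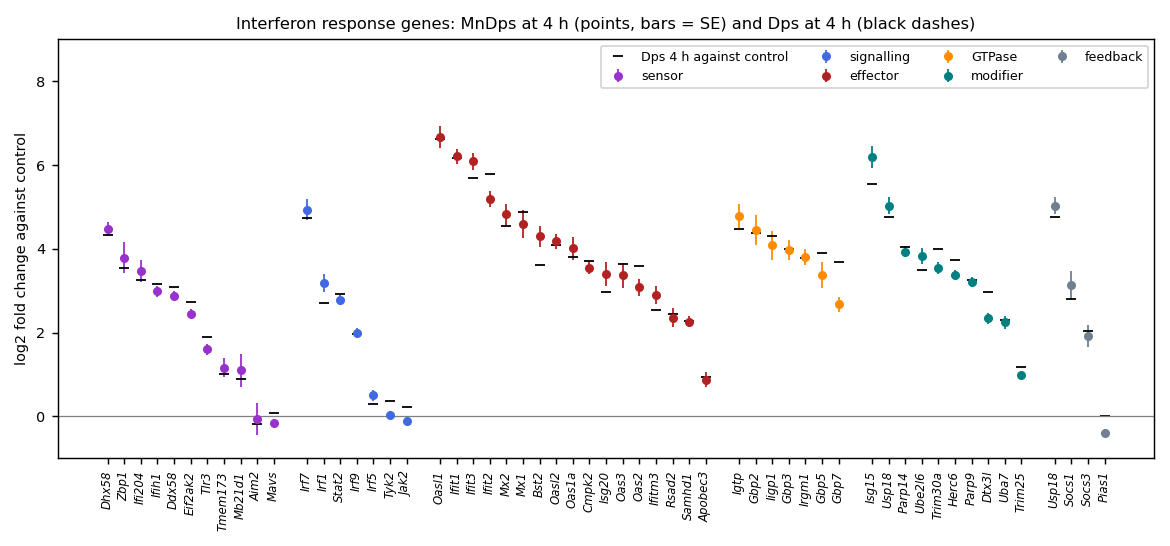
Log2 fold change against control (vertical axis) of the tested interferon-response genes that are reported here, ordered by role along the horizontal axis and plotted for MnDps at 4 h as points with SE and for Dps at 4 h as black dashes; Usp18 is drawn under 2 roles. Most points lie between 2 and 6, and the dashes, which share the control libraries, lie near them.

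Genes that cut and display peptides on class I molecules rose with the interferon genes. Of 16 tested genes 12 rose and 1 fell (0 without MnDps replicate 3 or Control replicate 3), at a median of 1.67, and with correction 12 rose and 0 fell, at 1.38. The peptide transporter subunit Tap1 read 18.7, 20.2 and 12.6 CPM in control and 214, 177 and 257 CPM in MnDps, a change of 3.67 ± 0.19. The loading factor Tapbp rose by 2.33 ± 0.13, the class I transactivator Nlrc5 by 2.83 ± 0.18 and B2m, the light chain of class I, by 1.31 ± 0.28. All MnDps libraries were above all control libraries for Tap1.

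The immunoproteasome is the form of the proteasome whose catalytic subunits are swapped for ones that favour class I peptides. Its subunit Psmb8 read 17.2, 14.2 and 11.1 CPM in control and 170, 167 and 257 CPM in MnDps, and rose by 3.83 ± 0.26. Psmb9 and Psmb10 rose by 3.71 ± 0.24 and 3.62 ± 0.26. The constitutive subunits that they replace, Psmb5, Psmb6 and Psmb7, were higher by only 0.60 ± 0.10, 0.48 ± 0.10 and 0.44 ± 0.08, and with correction the call held for Psmb7 (0.46) and was lost for Psmb5 (0.15) and Psmb6 (0.07). Few class II genes were called. Of 10 tested, 1 rose, the transactivator Ciita at 2.06 ± 0.18, and 1 fell, the peptide-loading modulator H2-Oa at −2.13 ± 0.41. The other members include the invariant chain Cd74 at −0.10 ± 0.32 and H2-Ab1 at 0.05 ± 0.35. These counts changed with single libraries: 4 genes were higher without Control replicate 1 and 2 without MnDps replicate 1, and 3 were lower without Control replicate 3 and 2 without MnDps replicate 3 or Control replicate 2. With correction 1 was higher and 2 were lower.

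**Figure D3:**
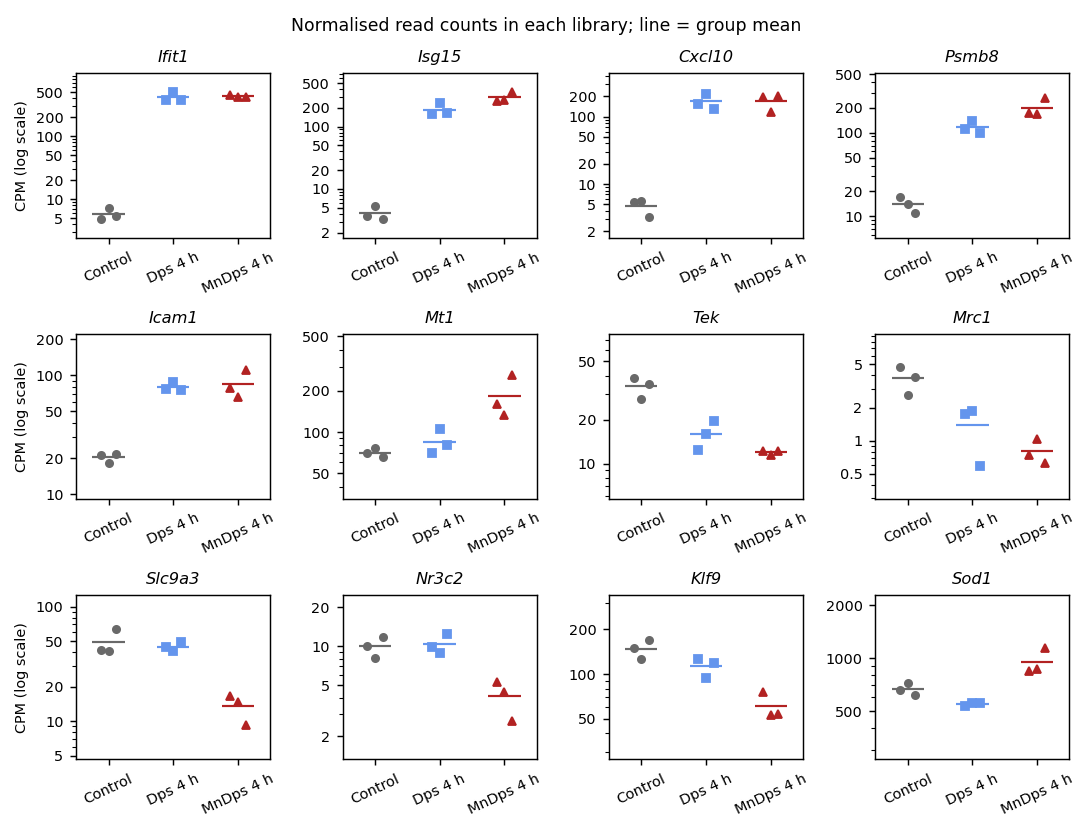
CPM (vertical axis, log scale) of 12 genes in each control, Dps 4 h and MnDps 4 h library, with a line at each group mean. Ifit1, Isg15, Cxcl10, Psmb8 and Icam1 lie above control in every library of both injected groups, whereas Slc9a3 and Nr3c2 lie low in the MnDps libraries only, of these 3 groups.

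Chemokines draw leukocytes out of the blood. Of 22 tested 18 rose and 2 fell (1 without MnDps replicate 1, MnDps replicate 2 or Control replicate 3), at a median of 2.43, and with correction 15 rose and 2 fell. The attractants of activated T cells, which are themselves interferon targets, had large changes. Cxcl10 read 5.49, 5.56 and 3.20 CPM in control and 195, 117 and 206 CPM in MnDps, a change of 5.24 ± 0.31. Ccl5 read 2.25, 0.745 and 0.807 CPM in control and 33.3, 39.8 and 74.5 CPM in MnDps, a change of 5.37 ± 0.41. Neither gene had overlapping groups. Cxcl9 and Cxcl11 rose by 4.51 ± 0.42 and 3.60 ± 0.39, the B-cell attractant Cxcl13 by 3.86 ± 0.32 and the monocyte attractant Ccl7 by 3.29 ± 0.56. Cxcl2, a neutrophil attractant, had 1 count over the controls and 30 over the MnDps libraries, 31.4-fold more after scaling for depth, with a 95% counting interval of 5.23 to 1280. Cxcl12, a homeostatic chemokine that retains cells in tissue, read 203, 140 and 169 CPM in control and 101, 92.8 and 88.1 CPM in MnDps. It fell by 0.86 on the log2 scale, with every MnDps library below every control library.

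Of 12 tested cytokine genes 9 rose and 2 fell, 1 without MnDps replicate 1, MnDps replicate 2 or Control replicate 3. Il6 had no count in any control library and 30 over the MnDps libraries, at least 10.5-fold higher by a limit of 3 counts over the control group. Il1b rose by 2.24 ± 0.29, its natural antagonist Il1rn by 3.95 ± 0.37 and the macrophage growth factor Csf1 by 2.30 ± 0.16. Il33, an alarmin released by damaged cells, fell, with a log2 fold change of −0.92 ± 0.26. Tnf read 0.220, 0.287 and 0.108 CPM in control and 0.564, 0.466 and 0.675 CPM in MnDps, and its change of 1.59 ± 0.48 lost its call without Control replicate 3.

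Genes of the NF-kB pathway, which carries signals of Toll-like and cytokine receptors to the nucleus, rose in 12 of 16 cases with 0 lower, at a median of 0.81. The 5 subunits rose in 3 cases, at a median of 0.42, and the 11 inhibitors and regulators in 9, at 0.98. Its non-canonical subunits Relb and Nfkb2 rose by 2.56 ± 0.18 and 1.5 ± 0.11, whereas the canonical Rela changed by 0.42 ± 0.08 and Nfkb1, at 0.04 ± 0.08, did not pass the test. Downstream of it, the co-regulator Bcl3 rose by 1.79 ± 0.20, the adaptor Traf1 by 1.68 ± 0.19 and the survival factor Birc3 by 1.12 ± 0.17. Of 18 genes of the Toll-like receptor pathway 7 rose and 2 fell. Without Control replicate 3 these numbers were 4 and 0, without MnDps replicate 3 the number lower was 1, and with correction they were 5 and 1. Tlr2, the receptor for bacterial lipoproteins, rose by 2.23 ± 0.30, the adaptor Myd88 by 1.23 ± 0.11 and the lipopolysaccharide co-receptor Cd14 by 1.12 ± 0.19. Tlr4, the receptor for lipopolysaccharide, had a log2 fold change of 0.01 ± 0.26 and Ticam1 (TRIF), its adaptor toward interferon, of −0.02 ± 0.09, and neither passed the test.

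Acute-phase proteins are made in bulk by the liver, and by other epithelia, when interleukin-6 signals. Of 17 tested 15 rose and 0 fell, at a median of 2.39, and with correction 13 rose. Leaving out Control replicate 3 left 10 and leaving out MnDps replicate 3 left 11. Haptoglobin (Hp), which binds free haemoglobin, read 0.384, 3.78 and 0.969 CPM in control and 52.5, 63.4 and 40.3 CPM in MnDps. Control replicate 2 was the highest control, and all MnDps libraries lay far above it. The fibrinogen chain Fgg rose by 2.31 ± 0.32, the protease inhibitor Serpina3n by 4.88 ± 0.61, the copper oxidase Cp by 1.27 ± 0.19 and the metalloreductase Steap4 by 2.39 ± 0.21. Itih4 had 3 counts over the controls and 172 over the MnDps libraries, 60.1-fold more after scaling (20.2 to 294). The antibacterial lectin Reg3g had 3 and 109, 38.1-fold more (12.7 to 187). Of 11 genes of interleukin-6 signalling 6 were higher and 1 lower, and the number lower was 3 without Control replicate 2, 2 without MnDps replicate 1 and 0 without any other single library. With correction 7 were higher and 0 lower. Stat3 rose by 0.85 ± 0.08, the feedback gene Socs3 by 1.92 ± 0.26 and the oncostatin M receptor Osmr by 0.83 ± 0.18. The interleukin-6 receptor chain Il6st, at −0.20 ± 0.09, did not pass the test before correction, was called lower without MnDps replicate 1 (−0.27) or Control replicate 2 (−0.29), and at 0.21 was called higher after it.

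Complement genes rose more often than all genes. Of 21 tested 10 rose and 4 fell, beside 22.9% and 22.7% of all genes, so the number lower was near that share. It was 2 without MnDps replicate 1 or without Control replicate 1. C3, the central component, read 16.1, 22.6 and 18.1 CPM in control and 108, 79.7 and 140 CPM in MnDps and rose by 2.53 ± 0.31. C4b rose by 2.84 ± 0.30. The groups did not overlap for either gene.

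Genes of regulated cell death rose in 14 of 23 cases and fell in 3, and with correction 14 rose and 1 fell. Among them Mlkl, the pore of necroptosis, read 2.03, 1.61 and 1.61 CPM in control and 19.6, 14.6 and 24.8 CPM in MnDps, a change of 3.50 ± 0.23 with no overlap. Casp4, the caspase that senses cytosolic lipopolysaccharide, rose by 3.26 ± 0.27, its target Gsdmd, the pore of pyroptosis, by 1.14 ± 0.15 and the inflammasome adaptor Pycard by 2.10 ± 0.14. Nlrp3, an inflammasome receptor, fell, at −1.80 ± 0.47. The kinases Ripk1 (0.09 ± 0.08, called higher with correction at 0.42) and Ripk3 (0.34 ± 0.29) did not pass the test, and Xaf1, an interferon-induced binder of apoptosis inhibitors, rose by 3.84 ± 0.19.

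Markers of blood leukocytes and of resident cells were compared next. In whole tissue, fewer cells of a type and less RNA per cell cannot be told apart. Of 15 neutrophil markers listed 5 had enough reads, and 4 of them rose. S100a8, with 2 counts over the controls, and S100a9 passed the read filter only through injected groups, so these genes could hardly be called lower. S100a9, one chain of calprotectin, read 0.165, 0.0573 and 0 CPM in control and 4.56, 6.18 and 8.59 CPM in MnDps, a log2 fold change of 6.72 ± 0.50, and Csf3r, the receptor for granulocyte growth factor, rose by 1.89 ± 0.34. Of the markers with too few reads, Mpo and Elane had no count in any MnDps or control library. In the MnDps libraries Camp had 2, 1 and 2 counts, Mmp8 3, 2 and 8, and Trem1 2, 2 and 3, with 0 in the controls. Ngp had 4, 0 and 8 counts (1, 0 and 1 in the controls), Retnlg 10, 11 and 20 (2, 1 and 0) and Cxcr2 1, 9 and 10 (0, 1 and 0). Il1r2 had 8, 4 and 9 counts in MnDps and 4, 3 and 11 in the controls. The summed level of the tested neutrophil markers was 3.61 to 5.65 CPM in control and 50.2 to 146 CPM in MnDps, a sum that includes Lcn2, which tubule cells also make.

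Monocyte markers rose in 7 of 10 cases with 1 lower, at a median of 1.39. Ly6c2, the surface marker of classical monocytes, rose by 2.38 ± 0.40, the integrin Itgam by 1.37 ± 0.19 and Chil3, a chitinase-like protein of myeloid cells, by 4.52 ± 0.57. The chemokine receptor Ccr2 was called lower, at −0.84 ± 0.26, but not with correction (−0.40) and not without MnDps replicate 1, MnDps replicate 3 or Control replicate 1. Markers of resident macrophages behaved otherwise: of 12, 2 rose (1 without MnDps replicate 2 or Control replicate 3) and 6 fell, and with correction 1 rose and 8 fell. The mannose receptor Mrc1 read 4.72, 2.64 and 3.85 CPM in control and 0.738, 1.05 and 0.627 CPM in MnDps, a change of −2.20 ± 0.34 with no overlap. The fractalkine receptor Cx3cr1 changed by −1.22 ± 0.23, Csf1r, the receptor for Csf1, by −0.50 ± 0.11 and Mertk, which takes up dying cells, by −0.70 ± 0.10, all called lower. The activating antibody receptor Fcgr1 rose by 2.28 ± 0.20. The summed level of these markers was 473 to 501 CPM in control and 408 to 426 CPM in MnDps.

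Of 10 dendritic cell markers 3 rose and 5 fell. Xcr1 and Clec9a, which mark the cross-presenting subset, fell, at −1.78 ± 0.52 and −1.07 ± 0.28, as did Flt3, the receptor that sustains the lineage, at −1.0 ± 0.29, and Clec10a at −2.15 ± 0.52. Ccr7, the receptor that guides mature dendritic cells to lymph nodes, rose by 2.79 ± 0.43 and the chemokine Ccl22 by 3.29 ± 0.51. Of the 11 tested T and NK cell markers 1 was higher, granzyme A (Gzma) at 2.26 ± 0.69, and 1 lower, Cd8a at −0.66 ± 0.24. Neither call held without MnDps replicate 3 or Control replicate 3, nor that of Cd8a without MnDps replicate 1 or Control replicate 2. With correction 1 was higher and 3 were lower. In edgeR's quasi-likelihood test none of the 4 tested B cell markers was called, with or without correction.

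Endothelial genes split by function. Of 7 adhesion genes, which let leukocytes attach, 7 rose, at a median of 2.14, and 6 rose after correction. Icam1 read 21.5, 18.4 and 21.7 CPM in control and 78.4, 65.3 and 111 CPM in MnDps, a change of 2.04 ± 0.16. The selectins Sele and Selp rose by 3.28 ± 0.41 and 3.53 ± 0.49 and Vcam1 by 2.14 ± 0.26. The rise of Icam2, at 0.60 ± 0.15, was lost with correction (0.20), and that of Ackr3, at 0.73 ± 0.20, without MnDps replicate 2 or Control replicate 3. Madcam1, an adhesion molecule of gut vessels, had 1 count over the controls and 50 over the MnDps libraries, 52.4-fold more (8.98 to 2110).

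Of 21 genes that define vessel cells 14 fell and 4 rose, at a median of −0.68, and with correction 14 fell and 3 rose, at −0.55. Tek, the angiopoietin receptor, read 38.4, 27.6 and 35.3 CPM in control and 12.3, 11.5 and 12.1 CPM in MnDps. Ehd3, a marker of glomerular endothelium, read 37.1, 29.0 and 38.8 CPM in control and 12.4, 8.93 and 15.3 CPM in MnDps. Both were low in every MnDps library, with changes of −1.50 ± 0.16 and −1.53 ± 0.20. The receptor Kdr, through which vascular growth factor acts, fell, at −1.13 ± 0.12, the fenestral diaphragm gene Plvap at −0.95 ± 0.16 and the transcription factors Sox18 and Ets1 at −0.83 ± 0.15 and −0.89 ± 0.13. Egfl7 and Robo4 rose, by 0.79 ± 0.14 and 0.53 ± 0.14, and the pan-endothelial Pecam1 (−0.05 ± 0.10) and Cdh5 (−0.08 ± 0.14) did not pass the test. Of 8 coagulation genes 3 rose and 2 fell, 1 without MnDps replicate 2, MnDps replicate 3 or Control replicate 2, and with correction 1 rose and 1 fell. The tissue factor inhibitor Tfpi fell, at −0.74 ± 0.17.

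Of 12 markers of mesangial cells and fibroblasts 0 rose and 5 fell, and 1 rose and 2 fell with correction. Itga8, the integrin of mesangial cells, read 17.6, 12.7 and 17.3 CPM in control and 4.13, 3.65 and 4.00 CPM in MnDps, a change of −2.02 ± 0.18 with no overlap. The proteoglycan Lum fell, at −1.28 ± 0.34, and so did the proteases Mmp2, Mmp12 and Mmp13, at −1.36 ± 0.28, −2.66 ± 0.62 and −2.22 ± 0.38, among 12 genes of matrix proteases and their inhibitors of which 2 rose and 5 fell. The stromal receptor Pdgfrb (0.03 ± 0.13) and smooth muscle actin, Acta2 (0.16 ± 0.17), did not pass the test.

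Manganese reaches cells through Slc39a8 and Slc39a14 and serves enzymes such as the mitochondrial superoxide dismutase, Sod2. The metallothioneins Mt1 and Mt2 bind zinc, copper and cadmium and respond to metals, glucocorticoids and interleukin-6. Mt1 read 70.6, 76.5 and 65.4 CPM in control and 161, 132 and 260 CPM in MnDps, a change of 1.38 ± 0.25 (0.95 with correction). Mt2 read 24.0, 24.1 and 33.9 CPM in control and 107, 87.0 and 227 CPM in MnDps, a change of 2.35 ± 0.35 (1.77 with correction). Both were highest in MnDps replicate 3 and did not overlap with control. The brain form Mt3, at 0.05 ± 0.68, did not pass the test.

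Of 16 tested manganese and zinc transporters and regulators 2 were higher and 2 lower, fewer in each direction than the shares over all genes. The number higher was 1 without MnDps replicate 1, MnDps replicate 2, Control replicate 1 or Control replicate 3, and the number lower was 1 without Control replicate 3. With correction 5 were higher and 1 lower. The manganese importer Slc39a14 read 50.8, 69.7 and 62.1 CPM in control and 45.4, 47.1 and 63.0 CPM in MnDps, a difference of −0.23 ± 0.15 that did not pass the test, although without MnDps replicate 3 it was called lower, at −0.40. The groups overlapped. Slc39a8, at −0.01 ± 0.11, was not called before correction and was called higher after it, at 0.25. The zinc importer Slc39a1 rose by 0.53 ± 0.09. The manganese exporter Slc30a10 had no count in any of these 6 libraries. Of the iron and copper genes, the ferritin heavy chain Fth1 rose by 0.43 ± 0.10 (0.19 with correction) and the copper pump Atp7a fell, from 30.4, 26.8 and 28.9 CPM in control to 19.5, 19.0 and 10.4 CPM in MnDps, a change of −0.81 ± 0.18. The call of the transferrin receptor Tfrc, lower at −0.69 ± 0.16, was lost with correction (−0.35). Over all 35 metal genes 7 were higher and 8 lower, 5 without Control replicate 3, against 11 and 2 with correction.

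Of 5 tested manganese-dependent enzymes 2 were higher and 0 lower. Arg2, the mitochondrial arginase, rose by 1.51 ± 0.20. Sod2 read 361, 349 and 320 CPM in control and 361, 368 and 395 CPM in MnDps. Its change of 0.13 ± 0.07 was not called, but with correction it was, at 0.48. Glutamine synthetase (Glul) at 0.10 ± 0.13 and pyruvate carboxylase (Pcx) at 0.04 ± 0.07 did not pass the test, and the rise of Pck1, at 0.70 ± 0.22, was lost with correction and without MnDps replicate 1, MnDps replicate 3, Control replicate 2 or Control replicate 3.

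Antioxidant genes rose more often than all genes, but less so with correction. Of 35 tested 17 rose and 4 fell, at a median of 0.22, beside 22.9% and 22.7% of all genes. With correction 10 rose and 8 fell, at 0.05, beside 18.7% and 19.3%, so the number lower was near that share. Before correction the number lower was 7 without Control replicate 1 and 2 without Control replicate 3. The cytosolic superoxide dismutase Sod1 read 657, 725 and 616 CPM in control and 848, 865 and 1141 CPM in MnDps, a change of 0.52 ± 0.10 that held with correction (0.59). Its extracellular relative Sod3 and catalase (Cat) fell, at −0.29 ± 0.08 and −0.36 ± 0.08. Glutathione peroxidase Gpx1 and thioredoxin Txn1 rose by 0.70 ± 0.09 and 0.80 ± 0.11. Targets of the stress factor Nrf2 were mixed: haem oxygenase Hmox1 rose by 1.17 ± 0.23 and sulfiredoxin Srxn1 by 0.35 ± 0.08, whereas Nqo1 (0.00 ± 0.10) and the glutathione synthesis gene Gclc (−0.64 ± 0.29) did not pass the test, the latter being called lower, at −0.93, without MnDps replicate 2 or Control replicate 1. After correction Nqo1, at −0.30, was called lower. Nox4, the hydrogen peroxide producing oxidase of the tubule, read 435, 293 and 356 CPM in control and 238, 201 and 183 CPM in MnDps and fell, at −0.80 ± 0.13, with no overlap. It was the only gene called lower of the 9 tested for NADPH oxidases and nitric oxide, of which 4 were higher. The number higher was 2 without MnDps replicate 3 or Control replicate 2, and with correction 2 were higher and 1 lower.

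**Figure D4:**
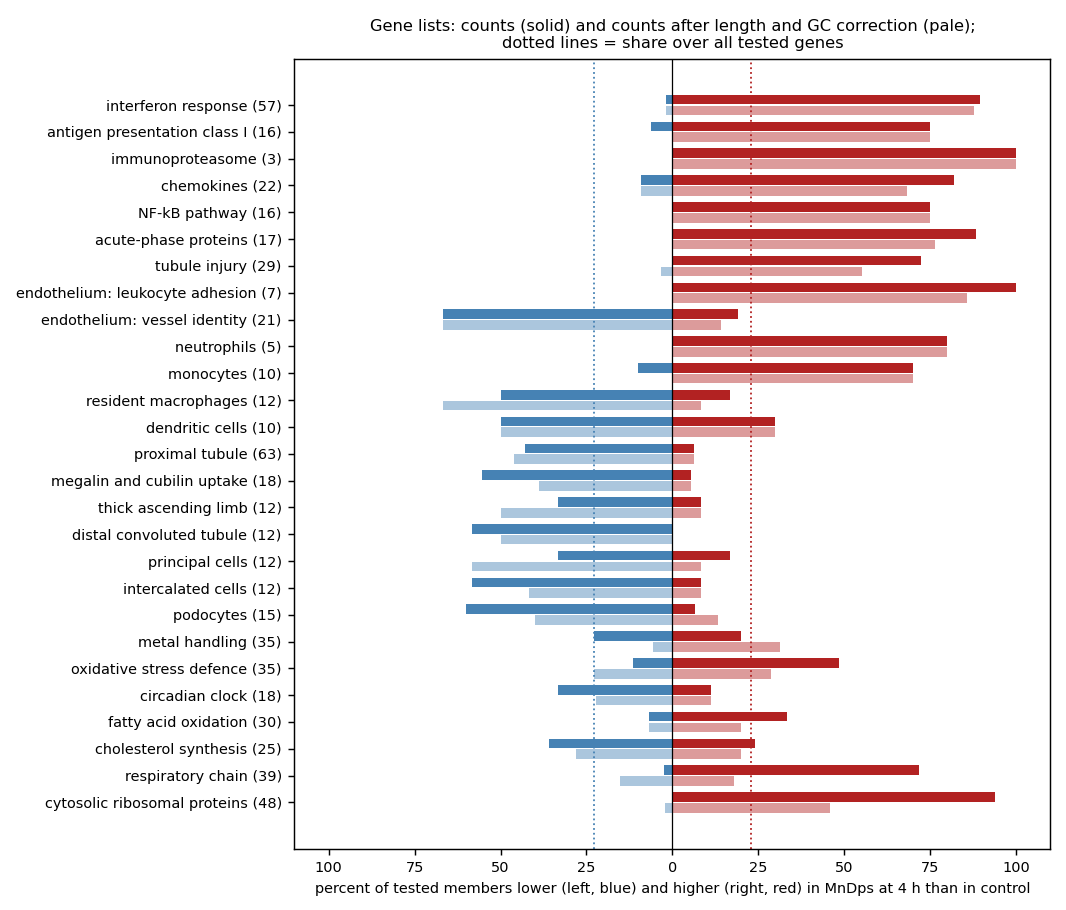
Percent of the tested members of 27 gene lists (number tested in parentheses) called lower (left) and higher (right) in MnDps at 4 h than in control, before (solid) and after (pale) length and GC correction; dotted lines mark the 22.7% and 22.9% over all tested genes. Interferon, antigen display, chemokine and acute-phase lists reach far to the right, vessel identity and resident macrophage lists to the left, and respiratory chain and ribosomal protein bars shrink with the correction.

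The proximal tubule reclaims most of the filtered salt, glucose, phosphate and protein. Of 63 tested genes that mark it, out of 63 listed, 4 rose and 27 fell, at a median of −0.18, and with correction 4 rose and 29 fell, at −0.24. Slc9a3, the sodium-proton exchanger of the brush border, read 41.8, 41.3 and 63.2 CPM in control and 16.5, 14.7 and 9.26 CPM in MnDps. This was the largest fall of the list, at −1.86 ± 0.21, with no overlap. The basolateral glucose exit Slc2a2 read 177, 141 and 164 CPM in control and 85.9, 79.7 and 72.6 CPM in MnDps, a change of −1.02 ± 0.10, also with no overlap. The apical sodium-glucose transporters Slc5a2 (−0.16 ± 0.08) and Slc5a1 (0.21 ± 0.10) did not pass the test. With correction Slc5a2 was called lower (−0.40) and Slc5a1 higher (0.30).

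Amino acid and organic anion carriers of the same cells were also among those lower. Slc7a8, a basolateral exchanger of neutral amino acids, read 166, 143 and 153 CPM in control and 84.6, 82.9 and 56.6 CPM in MnDps, a change of −1.04 ± 0.12. The apical neutral amino acid carrier Slc6a19 fell, at −0.80 ± 0.15, the organic anion carriers Slc22a8 and Slco1a1 at −0.41 ± 0.09 and −1.36 ± 0.33, and the phosphate carrier Slc34a3 at −0.71 ± 0.12. The sulfate carrier Slc13a1 rose, from 392, 350 and 399 CPM in control to 662, 540 and 596 CPM in MnDps, every library above every control. Slc3a1, a subunit of the cystine transporter (−0.01 ± 0.07, called lower with correction at −0.20), did not pass the test.

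Protein in the filtrate is taken up through the receptors megalin (Lrp2) and cubilin (Cubn). Of 18 genes of this route 1 rose and 10 fell, at −0.32, and 1 rose and 7 fell with correction, at −0.16. Both receptors are long transcripts, and their log2 fold changes of −0.49 ± 0.08 and −0.36 ± 0.08 became 0.00 and 0.11 with correction, so that neither call held. Ocrl, the phosphatase lost in Lowe syndrome, fell before and after correction, at −0.62 ± 0.11 and −0.40, as did the endosomal GTPase Rab5a, at −0.35 ± 0.09 and −0.39. The chloride-proton exchanger Clcn5, altered in Dent disease, fell, at −0.67 ± 0.13, but not with correction (−0.25).

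Past the proximal tubule, several regulators of salt and mineral transport were lower. In the thick ascending limb 1 of 12 rose and 4 fell. The calcium-sensing receptor Casr read 24.6, 23.4 and 35.9 CPM in control and 14.2, 14.9 and 11.8 CPM in MnDps, a change of −1.04 ± 0.18, and the magnesium-regulating growth factor Egf fell, at −0.95 ± 0.17, while Umod did not pass the test (−0.05 ± 0.12). In the distal convoluted tubule 0 of 12 rose and 7 fell, at a median of −0.51 (−0.32 with correction). Trpm6, the magnesium channel, fell, at −0.95 ± 0.13, and the thiazide-sensitive cotransporter Slc12a3 at −0.39 ± 0.08. Klhl3, which marks the kinases above Slc12a3 for degradation, read 16.2, 11.6 and 15.7 CPM in control and 7.99, 6.80 and 4.10 CPM in MnDps. Every MnDps library was below every control library for Casr and Klhl3.

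In principal cells 2 of 12 were higher and 4 lower, with 1 higher without MnDps replicate 3 or Control replicate 3, and 1 and 7 with correction. Nr3c2, the mineralocorticoid receptor through which aldosterone acts, read 10.05, 8.14 and 11.8 CPM in control and 5.30, 4.43 and 2.65 CPM in MnDps, a change of −1.28 ± 0.21 with no overlap. The sodium channel subunits Scnn1a and Scnn1b fell, by smaller amounts, at −0.26 ± 0.07 and −0.28 ± 0.07. The water channel Aqp2 was higher, at 0.82 ± 0.23, but not without MnDps replicate 3 or Control replicate 3. In intercalated cells 1 of 12 was higher (0 without MnDps replicate 3 or Control replicate 3) and 7 lower (3 without MnDps replicate 3), with the chloride-bicarbonate exchanger Slc26a4 (pendrin) at −0.29 ± 0.08. In podocytes 1 of 15 rose and 9 fell, of which 5 without MnDps replicate 2 and 4 without Control replicate 3, and with correction 2 rose and 6 fell. The slit diaphragm gene Nphs1 and the lineage factor Wt1 fell, at −0.50 ± 0.13 and −0.50 ± 0.14.

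Genes that mark tubule injury rose in 21 of 29 cases with 0 lower, at a median of 0.94, and with correction 16 rose and 1 fell, at 0.61. Havcr1 (KIM-1), the classic marker of the injured proximal tubule, read 1.26, 2.29 and 1.56 CPM in control and 6.21, 4.08 and 4.78 CPM in MnDps, with no overlap. Cd44 rose by 1.19 ± 0.25, the stress factor Atf3 by 2.16 ± 0.35, Lgals3 by 1.0 ± 0.10 and the secreted glycoprotein Spp1 by 0.72 ± 0.12. The regenerative factor Sox9 (0.49 ± 0.32) and Myc (0.06 ± 0.23) did not pass the test, and of 10 genes of mitosis 1 was called, the kinase Aurka at 0.92 ± 0.24.

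Metabolic genes changed in part. In fatty acid oxidation 10 of 30 rose and 2 fell (1 without Control replicate 3), with 6 higher without MnDps replicate 2, 5 without Control replicate 3 and 6 with correction. Acot1, an acyl-CoA thioesterase induced by the lipid receptor Ppara, read 69.3, 77.9 and 67.1 CPM in control and 208, 178 and 153 CPM in MnDps, a change of 1.33 ± 0.16. The mitochondrial co-activator Ppargc1a fell, at −0.88 ± 0.13. In cholesterol synthesis 6 of 25 rose and 9 fell, 5 without MnDps replicate 3, beside 22.9% and 22.7% of all genes. The number higher was thus near that share, as was the number lower without MnDps replicate 3. Hmgcs1 and Idi1 were lower, at −0.82 ± 0.12 and −1.05 ± 0.26, and Sqle and Fdps higher, at 0.53 ± 0.10 and 0.77 ± 0.17. Of 10 genes of glucose production and insulin signalling 1 was higher, Pck1 (0 without MnDps replicate 1, MnDps replicate 3, Control replicate 2 or Control replicate 3, and 2 without Control replicate 1), and 4 were lower, and with correction 0 and 5. G6pc, the last step of gluconeogenesis, fell, at −0.89 ± 0.19, and the insulin receptor substrates Irs1 and Irs2 at −0.85 ± 0.18 and −1.76 ± 0.44. Igfbp3, a carrier of insulin-like growth factors, read 319, 234 and 259 CPM in control and 89.2, 96.0 and 141 CPM in MnDps, a change of −1.31 ± 0.19. Neither Acot1 nor Igfbp3 had overlapping groups.

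Of 11 genes of the renin, vitamin D and klotho systems 4 were higher and 3 lower. The number higher was 2 without MnDps replicate 1, MnDps replicate 2 or Control replicate 1 and 1 without MnDps replicate 3 or Control replicate 3, and with correction 1 was higher and 2 were lower. Klotho (Kl), the co-receptor for the phosphate hormone of bone, read 984, 858 and 930 CPM in control and 556, 605 and 407 CPM in MnDps, a change of −0.82 ± 0.12. The angiotensin receptor Agtr1a fell, at −0.69 ± 0.12, and Agt, the precursor of its ligand, rose by 0.54 ± 0.09. Of 12 genes of the glucocorticoid response 3 rose and 2 fell, beside 22.9% and 22.7% of all genes, so both numbers were near those shares. Without Control replicate 1 the number lower was 4. Nr3c1, the glucocorticoid receptor, fell, at −0.76 ± 0.11. Klf9, a target of that receptor and of thyroid hormone, read 149, 126 and 170 CPM in control and 75.3, 53.5 and 53.7 CPM in MnDps, a change of −1.29 ± 0.14. Both Kl and Klf9 were lower in every MnDps library than in any control library, while other glucocorticoid targets, Tsc22d3 at −0.11 ± 0.31 and Sgk1 at −0.36 ± 0.38, did not pass the test. Of 18 clock genes 2 were higher (1 without MnDps replicate 3, Control replicate 1 or Control replicate 3) and 6 lower. The repressor Nr1d1 fell, at −0.95 ± 0.17, and Cry2 rose by 0.39 ± 0.07, while the activator Arntl (0.33 ± 0.23) and Per1 (−0.14 ± 0.38) did not pass the test, though limma voom called Arntl higher, at 0.62.

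Some genes of stress pathways rose. In the integrated stress response 8 of 15 rose and 2 fell, with the factors Atf4 and Ddit3 (CHOP) at 0.69 ± 0.12 and 1.08 ± 0.21 and their target Trib3 at 2.08 ± 0.26. Of 16 chaperones of the unfolded protein and heat shock responses 1 rose and 1 fell, and none of Hspa5 (0.10 ± 0.22), Hspa1a (−0.18 ± 0.49) and Xbp1 (−0.17 ± 0.19) passed the test. The number lower was 3 without Control replicate 1, 2 without MnDps replicate 3 and 0 without Control replicate 3, and the number higher was 2 without MnDps replicate 2 or Control replicate 2. Without Control replicate 1 Xbp1 was called lower, at −0.43, and with correction 0 chaperones rose and 1 fell. Of 14 targets of p53 6 rose and 2 fell (1 without MnDps replicate 3 or Control replicate 1, and 1 with correction). They included Phlda3, higher by 1.14 ± 0.16, and Mdm2, which at 0.05 ± 0.08 did not pass the test.

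Genes of the respiratory chain and of the ribosome have short transcripts, and their counts depended on the correction. Of 39 respiratory chain genes 28 were higher and 1 lower (0 without MnDps replicate 3 or Control replicate 1, 2 without MnDps replicate 2 or Control replicate 2), at a median of 0.43, but with correction 7 were higher and 6 lower, at 0.03. Of 48 ribosomal protein genes 45 were higher and 0 lower, at 0.55, and with correction 22 and 1, at 0.15. Among the genes that held, Cox6c read 418, 417 and 367 CPM in control and 535, 576 and 704 CPM in MnDps, at 0.60 ± 0.10 before and 0.53 after correction, and Rpl18 changed by 0.67 ± 0.11 and 0.56. Ndufb9, a subunit of complex I, went from 0.47 ± 0.10 to −0.01 and lost its call.

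MnDps was then set against Dps at 4 h. Both groups were compared with the same control libraries, so their changes against control are not independent, and the difference was tested directly between the 2 injected groups. By that test 6158 genes, 41.5% of those tested, differed, with 20.8% higher and 20.7% lower in MnDps. Few did so by much: 0.673% were higher and 1.97% lower by over 2-fold, and for 53% the MnDps and Dps libraries did not overlap. The dependence on length was stronger here, with a rank correlation of −0.63 over genes, and with correction 3641 genes were called, 24.5% of those tested, 12.6% higher and 11.9% lower.

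Dps raised interferon genes too. In Dps against control 50 of 57 were higher, at a median of 3.50, beside 8.33% of all genes higher and 6.27% lower (9.44% and 8.68% with correction). Between the injections 2 were higher and 13 lower in MnDps, beside 20.8% and 20.7% of all genes, so that the number lower was near that share. Their median was −0.02 beside −0.01 over all genes. With correction 0 were higher and 3 lower, beside 12.6% and 11.9% of all genes. The number higher was 0 without MnDps replicate 3, Dps replicate 1 or Dps replicate 3, 5 without MnDps replicate 2 and 4 without Dps replicate 2. Ifit1 read 370, 497 and 376 CPM in the Dps libraries, which overlapped with MnDps, with a difference of 0.05 ± 0.13 that did not pass the test. Gbp7 was lower in MnDps, at −1.01 ± 0.16 (−0.67 with correction), and so was Dtx3l, a ubiquitin ligase of the response, at −0.63 ± 0.12 (−0.38). Isg15 was higher, at 0.65 ± 0.19, and the immunoproteasome subunit Psmb8 at 0.77 ± 0.22, but both calls were lost with correction (0.10 and 0.47) and without MnDps replicate 3, Dps replicate 1 or Dps replicate 3. The endosomal DNA sensor Tlr9 was lower in MnDps, 0.825, 1.17 and 0.917 CPM against 1.79, 1.98 and 1.95 in Dps, a difference of −0.97 ± 0.25 with no overlap. Of 18 genes of the Toll-like receptor pathway 1 was higher and 5 were lower in MnDps than in Dps, and 0 and 3 with correction. The number higher was 2 without MnDps replicate 2 and 0 without MnDps replicate 1, MnDps replicate 3, Dps replicate 1 or Dps replicate 3.

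Before correction, transport and hormone genes of the tubule were called about as often as all genes, in both directions. In MnDps against Dps 2 of 12 genes of the thick ascending limb were higher and 2 lower, 2 and 3 of 12 of the distal convoluted tubule, 3 and 3 of 12 of principal cells and 3 and 1 of 11 of the renin, vitamin D and klotho systems, beside 20.8% and 20.7% of all genes. With correction these numbers were 1 and 1, 2 and 2, 0 and 4, and 0 and 2, beside 12.6% and 11.9% of all genes. In the thick ascending limb 1 was higher without any 1 MnDps library or Dps replicate 2 and 0 without Dps replicate 1, and 1 was lower without MnDps replicate 3 or Dps replicate 3. In the distal convoluted tubule 1 was higher without MnDps replicate 2, MnDps replicate 3, Dps replicate 1 or Dps replicate 3, and 5 were lower without MnDps replicate 2. In principal cells 1 was lower without MnDps replicate 1 or Dps replicate 3, and in the renin, vitamin D and klotho list 1 was higher without MnDps replicate 3. Genes of these and other lists that were lower in MnDps included the following. Slc9a3 read 44.4, 40.6 and 49.0 CPM in the Dps libraries, which overlapped with control, and its difference between the injections was −1.72 ± 0.21 (−1.51 with correction). Nr3c2 read 9.80, 8.94 and 12.5 CPM in Dps, with a difference of −1.31 ± 0.21 (−1.03), and Casr 25.7, 22.97 and 31.0 CPM, with −0.95 ± 0.18 (−0.79). For all 3 genes every MnDps library lay below every Dps library. Klhl3 differed by −1.11 ± 0.20, the calcium channel Trpv5 by −0.61 ± 0.14, Klf9 by −0.90 ± 0.14, Kl by −0.58 ± 0.12 and Atp7a by −0.98 ± 0.18, all lower in MnDps and all still called with correction. Of the 63 proximal tubule genes, which include Slc9a3, 10 were higher and 12 lower in MnDps than in Dps (5 higher without Dps replicate 1), and 3 and 17 with correction. Of 12 glucocorticoid response genes, which include Klf9, 1 was higher and 2 were lower, and 0 and 2 with correction. The number higher was 0 without MnDps replicate 1, MnDps replicate 3, Dps replicate 1 or Dps replicate 3. Of 35 metal genes, which include Atp7a, 4 were higher and 9 lower, and 3 and 2 with correction.

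Vessel genes differed in part. Of 21 genes that define vessel cells 3 were higher and 8 lower in MnDps, beside 20.8% and 20.7% of all genes. With correction 1 was higher and 6 were lower. The number higher was also 1 without MnDps replicate 3 or Dps replicate 1. Cdh5, the cadherin of endothelial junctions, read 34.8, 44.8 and 43.4 CPM in Dps and 25.8, 20.3 and 23.4 CPM in MnDps, a difference of −0.82 ± 0.13 with no overlap, and was higher in Dps than in control by 0.74 ± 0.13. Kdr and Ets1 were lower in MnDps, at −0.65 ± 0.12 and −0.63 ± 0.13. Tek, at −0.40 ± 0.16, and Ehd3, at −0.41 ± 0.20, did not pass the test between the injections. Ehd3 was called lower without MnDps replicate 3 (−0.63) or Dps replicate 1 (−0.58) and by limma voom (−0.58), and Tek without Dps replicate 1 (−0.56) and by DESeq2. Of the adhesion genes 1 was higher and 0 lower, the former being Icam2 (0.48 ± 0.15), a call that was lost with correction (0.05) and without MnDps replicate 3 or Dps replicate 1.

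Genes higher in MnDps than in Dps included Sod1, which read 532, 556 and 553 CPM in Dps, below each MnDps library, with a difference of 0.80 ± 0.10 (0.89 with correction). Of the 35 antioxidant genes 19 were higher and 1 lower (2 without MnDps replicate 2, 0 without Dps replicate 1 or Dps replicate 3), and 10 and 3 with correction. Sod2 differed by 0.26 ± 0.07 (0.63), a call lost with a term for the deeply sequenced libraries. Cebpd, a factor that drives acute-phase genes, differed by 1.12 ± 0.30 (1.17), Acot1 by 0.89 ± 0.16 (0.75) and Pycard by 0.65 ± 0.13 (0.74). Of the 4 tested genes of the family of Cebpd 2 were higher and 0 lower. Of 30 fatty acid oxidation genes 8 were higher and 5 lower (6 and 2 with correction). Of 23 cell death genes 4 were higher and 2 lower (4 and 1). Over all genes 20.8% were higher and 20.7% lower (12.6% and 11.9% with correction). Before correction the numbers in these 2 lists were thus near or below those shares. The numbers lower in these 2 lists went down to 2 and 0 with 1 library left out. The neutrophil genes S100a8 and S100a9 were higher by 1.60 ± 0.37 and 1.60 ± 0.28 (1.05 and 1.04). They were the 2 called of 5 tested neutrophil markers. Mt1 read 70.2, 105 and 80.2 CPM and Mt2 60.1, 89.3 and 63.8 CPM in Dps. They were higher in MnDps by 1.11 ± 0.25 and 0.98 ± 0.33, but with correction neither call held (0.62 and 0.35), and that of Mt2 was also lost without MnDps replicate 3, Dps replicate 1 or Dps replicate 3.

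Outside the lists, the largest falls between the injections were those of Zfp366, a regulator of dendritic cells, at −2.61 ± 0.40, Shroom4, an actin-binding protein, at −2.45 ± 0.36, and Xylt1, which starts the sugar chains of proteoglycans, at −2.32 ± 0.37. Shroom4 read 21.6, 16.1 and 21.2 CPM in Dps and 5.21, 3.34 and 2.17 CPM in MnDps, with no overlap. These 3 were still called with correction, at −2.31, −2.05 and −1.90. The integrin chain Itgb8, which activates transforming growth factor beta, differed by −1.78 ± 0.27 and the ADP-ribosylating enzyme Tnks by −1.68 ± 0.28.

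**Figure D5:**
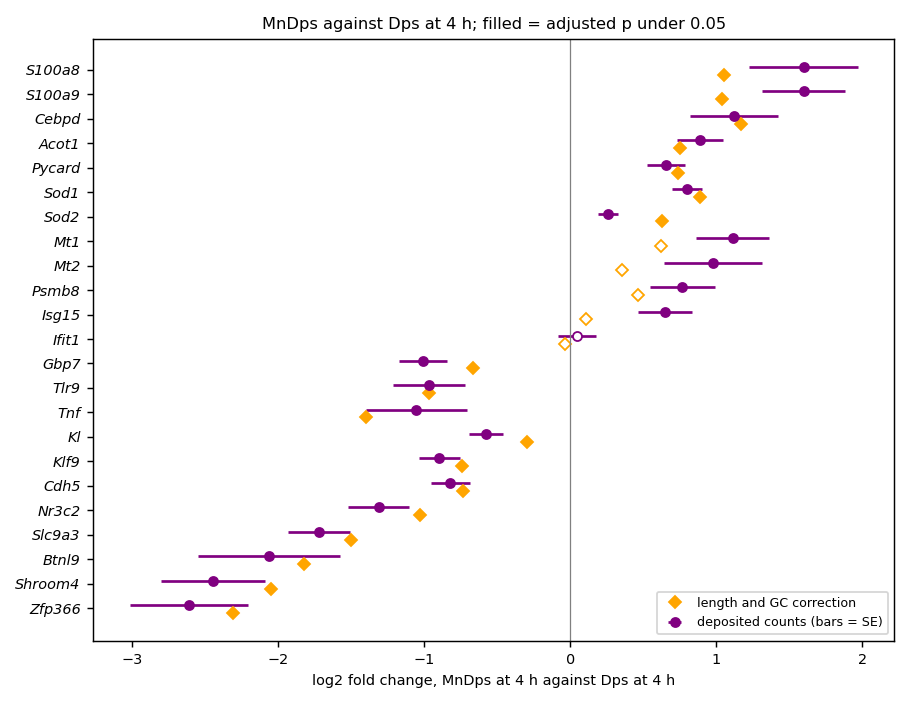
Log2 fold change of MnDps against Dps at 4 h (horizontal axis) for 23 genes, before (purple points, bars SE) and after (orange diamonds) length and GC correction, filled where called. Slc9a3, Nr3c2, Klf9 and Sod1 keep their side and call with the correction, and Mt1, Mt2, Psmb8 and Isg15 become uncalled.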

How the data were processed

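Per the labels' protocols, RNA was extracted from snap-frozen kidneys with a Qiagen RNeasy Plus kit, and stranded TruSeq libraries were sequenced paired-end. Per the submitters' processing notes, the authors aligned reads with STAR to mm10 and counted them with featureCounts. Versions, strand and multi-mapping settings were not given in the sources used here. Unnormalised read counts for each gene symbol were deposited by the authors, in 1 column per library, whose name matches a sample label. Replicate numbers follow accession order. The biological coefficient of variation was 10.7%, and replicate libraries differed beyond counting noise (chi-square per degree of freedom 8.1 to 30.8). Library totals ran from 17589774 to 42074942 in the 3 groups compared.

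Genes with too few counts were removed by edgeR's filterByExpr, which removed 9567. The rest were scaled with TMM and tested with edgeR 4.0.16 (R 4.3.3) by the quasi-likelihood F-test, in 1 fit of 5 group means over the 14 libraries with 9 residual degrees of freedom. Benjamini-Hochberg adjustment ran over all 14854 genes. The SE is the log2 fold change divided by the square root of F. The length and GC correction entered each library's spline trend (4 degrees of freedom) over the longest transcript's length and GC content as an offset; both were known for 99.3% of tested genes. The alternatives (scaling, count filter, fold minimum, this correction, a term for deep libraries, fewer groups, leaving out each library) used also limma 3.58.1 and DESeq2 1.42.0.

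Genes were named as members of lists, or as the 20 largest rises or falls with an adjusted p under 0.05, a higher group mean of 1 CPM or more and groups that did not overlap. Lypla1 was named outside these rules, after its values were seen. The members and lists were chosen with earlier results of these data known. Intervals and limits from counts cover counting error only. Values of some list members are not reported here, though they are counted in their lists.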

Additional observations from a re-analysis of the deposited data

Results flagged for a closer look

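Among the named genes, 9 were called in opposite directions against control after MnDps and after Dps at 4 h with the difference between the injections called too, and 2 of them were called so with length and GC correction as well. Both comparisons share the control libraries. Cox5a, a subunit of the last respiratory complex, read 404, 464 and 487 CPM in MnDps, 341, 341 and 302 CPM in control and 278, 281 and 260 CPM in Dps. Its log2 fold change against control was 0.46 ± 0.08 after MnDps and −0.26 ± 0.08 after Dps, and the difference was 0.73. Atp6v1g3, a proton pump subunit of intercalated cells, read 62.1, 63.9 and 77.4 CPM in MnDps, 56.0, 58.1 and 49.9 CPM in control and 41.8, 46.6 and 39.0 CPM in Dps. Its values were 0.31 ± 0.10 and −0.36 ± 0.10, with a difference of 0.67. The call of Atp6v1g3 in MnDps against control was lost without MnDps replicate 3 or Control replicate 3 and when only these groups were fitted. For both genes every MnDps library lay above every Dps library.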

How the results depend on the processing

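No paired analysis was possible because the labels give no replicate numbers. Against control, a minimum of 1.5-fold left 813 genes called, 491 higher and 322 lower; leaving out 1 library gave 4956 (without Control replicate 3) to 6814 called, 2475 to 3264 higher and 2481 to 3550 lower. Against Dps, a minimum of 1.5-fold left 53 genes, 11 higher and 42 lower; the length and GC correction gave 3641, 1875 and 1766; a term for the deeply sequenced libraries gave 3558, 1882 and 1676; leaving out 1 library gave 4670 (without MnDps replicate 3) to 5948 called, 2152 to 2925 higher and 2518 to 3023 lower. Other scalings, filters and tests (median-of-ratios factors, no filter, a stricter filter, DESeq2, limma voom, only the groups compared) kept both numbers of called genes within 1.5 times. With the length and GC correction the sign turned for Cubn (0.11), Il6st (0.21), Ndufb9 (−0.01) and Slc39a8 (0.25), of which Slc39a8 and Il6st were not called before it; the cause was not tested. Of 3394 values of printed genes against control over these alternatives, 3235 kept direction and call, 138 lost the call, 17 gained it and 4 changed sign; against Dps 455 of 510 kept both, 50 lost the call and 5 gained it. Differences in genes of few counts were limited by depth.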

Other observations

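Other cell types that a kidney sample can hold were read from their markers. Of 14 adipocyte markers 4 were higher and 1 lower after MnDps, beside 22.9% and 22.7% of all genes. The number higher was 9 without Control replicate 2, 2 without MnDps replicate 1, and 1 without MnDps replicate 2, Control replicate 1 or Control replicate 3, and the number lower was 2 without MnDps replicate 2. Adipoq, the fat hormone adiponectin, read 0.0549, 5.90 and 1.02 CPM in control and 9.38, 13.7 and 4.73 CPM in MnDps, so that control replicate 2 lay within the MnDps range and control replicate 1 was near 0. Of 10 urothelial markers 1 was higher, the keratin Krt15 at 1.16 ± 0.21, and 5 were higher without Control replicate 2. Of 8 adrenal genes only Star passed the filter, at 0.25 ± 0.28, and it was not called. The markers were not tested as a cause of any result.

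Lysosomal genes were higher in 12 of 25 cases and lower in 1 (2 without MnDps replicate 1, MnDps replicate 2 or Control replicate 2), and with correction 8 were higher and 4 lower. The cathepsins Ctsb and Ctsl, the main cysteine proteases of the lysosome, rose by 0.31 ± 0.07 and 0.33 ± 0.07 (0.47 and 0.66 with correction), and the cholesterol carrier Npc2 by 0.56 ± 0.10 (0.51). Of 22 immediate early genes 7 were higher and 0 lower, with 1 lower without MnDps replicate 1, Control replicate 1 or Control replicate 2, and 8 higher and 1 lower with correction. Jund and Ier2 rose by 0.74 ± 0.11 and 0.93 ± 0.15, and Jun, at 0.50 ± 0.21, did not pass the test but was called higher without Control replicate 3 (0.78), by DESeq2 and with a term for the deeply sequenced libraries (0.64).

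Lypla1, an enzyme that removes palmitate from proteins, was chosen after its values were seen. It read 437, 396 and 450 CPM in control, 404, 366 and 339 CPM in Dps and 188, 237 and 126 CPM in MnDps at 4 h. At 24 h it read 381, 353 and 352 CPM in Dps and 164 and 177 CPM in MnDps. Every MnDps library at either time was below every control and Dps library. At 4 h the log2 fold change was −1.22 ± 0.16 against control and −1.01 ± 0.16 against Dps, and −0.94 and −0.74 with correction, all with an adjusted p under 0.05.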
